A study of Homo sapiens with 24 samples.

Results

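The report follows 10 transcription factors of the T lineage, TCF7, LEF1, GATA3, RUNX3, RORA, TBX21, FOXP3, IKZF2, BACH2 and ZBTB7B, which were taken by symbol from the 25559 genes counted in each library and were all present in the files. RNA sequencing was done on 3 human T-cell lines, HH from cutaneous T-cell lymphoma, PF382 from T-cell acute lymphoblastic leukemia and TLOm1 from adult T-cell leukemia. Cells were left untreated or kept for 96 h with azacitidine or decitabine, cytidine analogs that trap DNA methyltransferases and lower DNA methylation in dividing cells, with drug added every 24 h. The azacitidine doses were 50, 125 and 250 nM for HH but 125, 250 and 500 nM for the other 2 lines, while decitabine doses were 5, 12.5 and 25 nM throughout. Each dose in each line has 1 library, and each line has 2 untreated libraries, 1 made with the azacitidine set and 1 with the decitabine set, as the prefixes of the library titles show. No dose was shared by the drugs, so their values stand side by side and were not compared. No labels say that libraries of a line came from separate cultures, and the p-values therefore reflect the spread among the libraries alone, which may be technical.

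T-cell fate is set by a small circuit of DNA-binding proteins. TCF7 and LEF1 are HMG-box factors that act with beta-catenin and are high in early thymocytes and naive T cells, while GATA3 is needed for T-cell commitment and later for type 2 helper cells. ZBTB7B and RUNX3 direct the CD4 and the CD8 choice respectively, TBX21, RORA and FOXP3 mark type 1, type 17 or innate-like and regulatory programmes, IKZF2 is an Ikaros family factor found in regulatory T cells, and BACH2 is a repressor that holds back effector genes.

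Total counts ranged from 16175077 to 32496676 in the azacitidine set and from 13892514 to 29793985 in the decitabine set, and levels are given as CPM, read counts scaled to the library total. A count of 0 allows up to 3 counts, which is 0.0923 to 0.216 CPM depending on the library and covers counting error only. CPM takes no account of transcript length, so levels were compared between libraries and not between genes. Of 10 T-lineage receptor genes, 10 reached 1 CPM in untreated PF382 and 7 in untreated HH, where CD8A was among the 3 below it. In untreated TLOm1 4 did, and CD3D, CD5 and CD8A were among the 6 below it. Summed over the 10 genes, the untreated level was 1340 to 1416 CPM in HH, 1242 to 1250 CPM in PF382 and 1274 to 1396 CPM in TLOm1. CD3D, a chain of the T-cell receptor complex, was at 0.731 and 0.0463 CPM in the untreated TLOm1 libraries against 31.5 and 43.0 CPM in HH and 352 and 334 CPM in PF382, whereas CD3E was at 39.9 and 33.5 CPM in TLOm1. The 7 immature thymocyte markers, among them RAG1, RAG2 and PTCRA, summed to 1615 to 1737 CPM in untreated PF382 and to at most 1.63 CPM in untreated HH and TLOm1.

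Some libraries held low counts of many genes that were nearly silent in an untreated library of the line and high in another line. Each list took genes at 50 CPM or more in both untreated libraries of the other line. It also required at most 0.5 CPM in the line's untreated library of the other set, so the library described was not itself limited. Members that met the limits stayed in the lists. Of 94 such genes from PF382, TCF7 and CD3D among them, 3 were at 0 in the untreated TLOm1 library of the azacitidine set. Their median there was 0.214% of the PF382 level. In the untreated library of the decitabine set 40 of the 75 genes of its list were at 0. In HH at 50 nM azacitidine none of 56 genes of that kind from TLOm1 was at 0 and their median was 1.45% of the TLOm1 level. These shares are given again beside the members that they touch.

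Promoter sequence is shown for the 3 members whose level followed dose and for which a window wholly outside the annotated gene was at hand, because the drugs act on cytosines of CpG dinucleotides. All 10 members were matched in RefSeq sequence of build GRCh38.p14, with 19 start sites. Each window holds the 250 bases before a start site, written 5′ to 3′ on the strand of the gene, and capitals mark every CG. Over 35116 windows of that length the median was 11 CG. The submitters' files use build GRCh37.p2, and methylation was not measured, so the windows describe sequence alone. The BACH2 window at chr6:90296844-90297093, minus strand, holds 40 CG, and 2.16% of all windows hold as many. The GATA3 window at chr10:8045083-8045332, plus strand, holds 11, and 50.3% of windows hold as many. The IKZF2 window at chr2:213152457-213152706, minus strand, holds 4, and 70.7% of windows hold as many.
BACH2: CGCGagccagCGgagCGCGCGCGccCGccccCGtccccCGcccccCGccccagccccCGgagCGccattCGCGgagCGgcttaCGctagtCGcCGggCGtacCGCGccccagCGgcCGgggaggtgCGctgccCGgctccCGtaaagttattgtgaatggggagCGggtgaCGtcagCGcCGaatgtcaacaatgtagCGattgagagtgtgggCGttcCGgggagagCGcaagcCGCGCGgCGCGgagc
GATA3: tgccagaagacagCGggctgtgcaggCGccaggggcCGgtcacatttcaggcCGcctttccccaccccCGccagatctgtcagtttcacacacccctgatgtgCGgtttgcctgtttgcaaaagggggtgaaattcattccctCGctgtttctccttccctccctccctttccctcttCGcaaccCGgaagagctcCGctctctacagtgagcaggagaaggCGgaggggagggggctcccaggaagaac
IKZF2: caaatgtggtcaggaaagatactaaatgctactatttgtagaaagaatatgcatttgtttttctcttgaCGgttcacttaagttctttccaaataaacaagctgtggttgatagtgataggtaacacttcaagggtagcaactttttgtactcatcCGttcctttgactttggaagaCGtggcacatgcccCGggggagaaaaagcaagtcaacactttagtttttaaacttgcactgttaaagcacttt
BACH2 thus has a CpG-dense upstream window, GATA3 sits at the median and IKZF2 has few CG. GATA3 has 6 start sites in the table, with 4 to 30 CG, so the window shown is 1 of several.

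The untreated libraries asked how the lines differ in these factors. HH combined TCF7, LEF1, GATA3, RUNX3, RORA and ZBTB7B and had almost no IKZF2 or BACH2. PF382 had the highest TCF7, LEF1, IKZF2, BACH2 and FOXP3, the lowest RUNX3 and RORA of the lines, and no more than 1 count of ZBTB7B. TLOm1 had RUNX3, RORA, ZBTB7B and IKZF2, the lowest LEF1 of the lines, and TCF7 at 85 and 4 counts. GATA3 was present in PF382 and TLOm1 as well, at lower levels than in HH. By the edgeR quasi-likelihood F test on the 6 untreated libraries, with p-values adjusted by Benjamini-Hochberg over all genes and called under 0.05, 8 of the 9 members tested differed between the lines, where 82.9% of all 15501 genes tested did. The exception was RORA (adjusted p = 0.0646), and TBX21 did not pass the filter on low counts. RORA was called in 5 of 11 alternative settings, DESeq2 and limma voom among them. A count of 8 of 9 is close to the background and says nothing particular about the members.

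**Figure D1:**
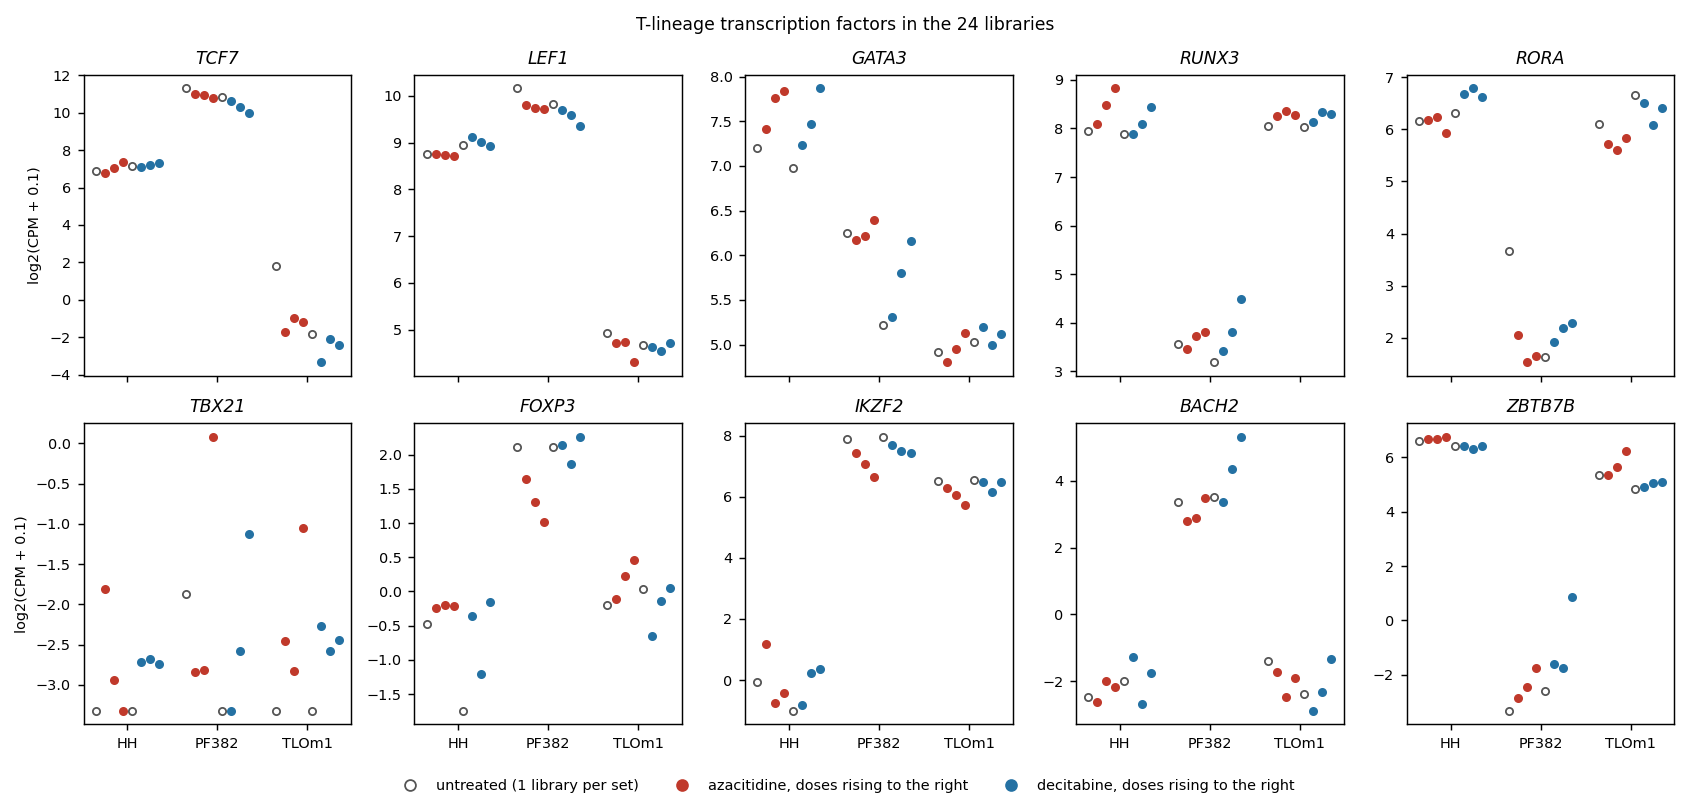
Level of each factor in the 24 libraries as log2(CPM + 0.1), with the 3 lines along the x axis, untreated libraries as open circles and treated libraries as filled circles with doses rising to the right within a drug. The vertical scale differs between panels, and TCF7, LEF1, GATA3, IKZF2 and ZBTB7B separate the 3 lines without overlap over all 24 libraries. For GATA3 the gap is narrow, from 36.5 CPM at most in TLOm1 to 37.1 CPM at least in PF382.

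Among the early T-cell factors, TCF7 was at 117 and 140 CPM in untreated HH, 2536 and 1821 CPM in PF382, and 3.45 and 0.185 CPM in TLOm1, with the azacitidine-set library first here and in what follows. The order of the lines was PF382, HH, TLOm1 with no overlap. PF382 exceeded HH by 3.84 on the log2 scale (SE 0.73, edgeR adjusted p = 0.0275, n = 2 per line) and TLOm1 was below HH (log2 difference -6.21, SE 0.94, adjusted p = 0.0195). Of the 9 members tested, 5 were called higher and 4 lower in PF382 than in HH, against 66.4% of all genes called in either direction, 34.4% higher and 32% lower. In TLOm1 relative to HH 1 was called higher and 4 lower, against 55.7% of all genes, 28.1% higher and 27.6% lower. In PF382 relative to TLOm1 5 were called higher and 3 lower, against 67.2% of all genes, 33.9% higher and 33.3% lower. The 2 TLOm1 libraries differed from each other, at 85 and 4 counts. The TCF7 calls were lost when any 1 of the HH or PF382 libraries was left out, with adjusted p up to 0.24 for PF382 minus HH (0.0624 with no filter on low counts), 0.163 for TLOm1 minus HH and 0.0934 for PF382 minus TLOm1, although the differences kept their sign.

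LEF1 was at 433 and 492 CPM in HH, 1145 and 903 CPM in PF382 and 30.4 and 25.3 CPM in TLOm1. The lines again did not overlap and stood in the order of TCF7. LEF1 was 0.94 higher in PF382 than in HH on the log2 scale (SE 0.14, edgeR adjusted p = 0.00018) and -4.09 in TLOm1 relative to HH (SE 0.16, adjusted p = 1.48e-08). Of the antisense neighbours listed, LEF1-AS1 alone was matched, under the older identifier LOC641518. It was at 50.2 and 53.8 CPM in HH, 139 and 110 CPM in PF382 and 5.32 and 3.56 CPM in TLOm1, the same order as LEF1. The labels name a strand-specific kit, but the strand setting of the counting is not given in the sources used here, so reads of LEF1 and its antisense partner may not be told apart.

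GATA3, the commitment and type 2 helper factor, was at 147 and 126 CPM in HH, 75.8 and 37.1 CPM in PF382 and 30.0 and 32.6 CPM in TLOm1. HH was above both other lines, with log2 differences from HH of -1.51 in PF382 (SE 0.29, edgeR adjusted p = 0.00637) and -2.14 in TLOm1 (SE 0.30, adjusted p = 0.00221). PF382 and TLOm1 did not differ beyond their spread in the main test (log2 difference 0.63, SE 0.29, adjusted p = 0.115), and the 2 PF382 libraries were farther apart than PF382 at 37.1 CPM was from TLOm1. That difference was called in 3 of 11 alternative settings, limma voom among them. The call for PF382 against HH was lost without the decitabine-set HH library (adjusted p = 0.057).

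RUNX3 and ZBTB7B, the opposed factors of the CD8 and CD4 choice, were both low in PF382. RUNX3 was at 248 and 238 CPM in HH, 11.7 and 9.06 CPM in PF382 and 266 and 263 CPM in TLOm1. HH and TLOm1 did not differ beyond their spread in RUNX3 (log2 difference 0.10, SE 0.12, edgeR adjusted p = 0.511), and PF382 was lower than HH (log2 difference -4.73, SE 0.14, adjusted p = 4.8e-10). ZBTB7B was at 97.0 and 86.3 CPM in HH and 40.2 and 28.1 CPM in TLOm1, a log2 difference of -1.47 (SE 0.15, adjusted p = 1.17e-05). PF382 held 0 and 1 count of ZBTB7B, and the summed counts of the untreated libraries gave a ratio of HH to PF382 of 3527 (95% exact counting interval 633 to 139341, from 4096 counts against 1). CD4, the coreceptor of the lineage that ZBTB7B directs, was at 563 and 520 CPM in HH, 31.7 and 20.8 CPM in PF382 and 959 and 838 CPM in TLOm1, and CD8A was at 21.2 and 26.1 CPM in PF382 and at most 0.248 CPM in untreated HH and TLOm1. The CD4, CD8A and CD3E values were picked after they were seen, as checks of the line labels.

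RORA, a nuclear receptor of type 17 and innate-like cells, was at 70.9 and 79.7 CPM in HH, 12.6 and 3.0 CPM in PF382 and 68.6 and 101 CPM in TLOm1. PF382 was below both other lines in both libraries, and HH and TLOm1 overlapped. The log2 difference of PF382 from HH was -3.43 (SE 0.82, edgeR adjusted p = 0.0456). That call was lost without any 1 HH or TLOm1 library, with adjusted p up to 0.303, with the size factors of DESeq2 (adjusted p = 0.0527) and with no filter on low counts (adjusted p = 0.0945). The PF382 libraries themselves stood at 289 and 46 counts.

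TBX21, the type 1 helper factor, had 0 counts in 5 of the 6 untreated libraries and 4 counts in the azacitidine-set PF382 library. FOXP3, the regulatory T-cell factor, was at 0.617 and 0.199 CPM in HH, 4.23 and 4.23 CPM in PF382 and 0.772 and 0.926 CPM in TLOm1. FOXP3 was 3.14 higher in PF382 than in HH on the log2 scale (SE 0.48, edgeR adjusted p = 0.000159), from 97 and 65 counts in PF382, while HH and TLOm1 did not differ beyond their spread (log2 difference 0.99, SE 0.55, adjusted p = 0.146). IKZF2 was at 0.864 and 0.398 CPM in HH, 238 and 249 CPM in PF382 and 92.5 and 92.8 CPM in TLOm1. The lines did not overlap in IKZF2, and PF382 was 1.23 above TLOm1 on the log2 scale (SE 0.13, adjusted p = 1.02e-05). BACH2 was at 10.3 and 11.3 CPM in PF382 and at 2 to 7 counts in every untreated HH and TLOm1 library, which left PF382 as the line where BACH2 could be followed.

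Most genes of the factor lists around the members also differed between the lines. Of 14 T-cell commitment factors 13 differed between untreated lines, of 16 helper and effector factors tested 16, of 17 paralogs of the members tested 15, of 10 naive and memory genes 10, of 7 type 1 helper genes tested 7, of 5 type 2 genes tested 3, of 3 type 17 genes tested 2 and of 8 regulatory T-cell genes tested 8. Of the marker lists, 10 of 10 T-lineage receptor genes, 7 of 7 immature thymocyte markers, 3 of 3 B-cell, 3 of 4 myeloid and 4 of 4 epithelial and stromal markers tested differed, against the 82.9% of all genes. EOMES, a paralog of TBX21, was at 5.46 and 6.12 CPM in PF382 and at most 0.324 CPM elsewhere untreated. EOMES was picked after its values were seen.

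Between the untreated libraries of the 2 sets, 0 of 9 members were called by edgeR, 0 had an unadjusted p under 0.05, and DESeq2 and limma voom called 0, where 10.6% of all genes were called, 5.59% higher and 5.03% lower in the decitabine set. RORA and TCF7 nevertheless moved by large amounts in 1 line each, as their counts above show, and RORA was called as 0.36 higher in the decitabine set when the azacitidine-set PF382 library was left out.

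For each drug, the 9 treated libraries were then set against the 3 untreated libraries of the set with cell line as a block. The 3 doses of a line stood in for replicates of treatment, so a trend with dose counted as spread in this test. With azacitidine 0 of 9 members were called, where 1.17% of 16107 genes were, 0.857% higher and 0.317% lower, while 3 members had an unadjusted p under 0.05 by edgeR, DESeq2 called 1 and voom called 0. The 3 were RORA (log2 fold change -0.76, SE 0.26, adjusted p = 0.148), IKZF2 (-0.58, SE 0.25, adjusted p = 0.221) and LEF1 (-0.27, SE 0.09, adjusted p = 0.147), and the DESeq2 call was RORA. The RORA value rested on PF382, whose untreated library held 289 counts against 46 in the other set: it was -0.21 without PF382 (adjusted p = 0.377) and -0.13 with the decitabine-set library as its control (adjusted p = 0.506). For LEF1 the azacitidine-set untreated library was higher than the decitabine-set one in PF382 (1145 and 903 CPM) and TLOm1 (30.4 and 25.3 CPM). In HH it was lower (433 and 492 CPM). Over the alternatives the LEF1 effect ranged from -0.48 to -0.04 in PF382 and from -0.39 to -0.01 in TLOm1. RORA was below its own untreated library in 7 of 9 treated libraries, IKZF2 in 8 and LEF1 in 8, while ZBTB7B was above it in 9 and RUNX3 in 8. With decitabine 0 of 9 members were called, and 0% of all genes. GATA3 had an unadjusted p under 0.05 (log2 fold change 0.38, SE 0.17, adjusted p = 0.298), and DESeq2 and voom called 0. An exact two-sided permutation test that moved the untreated label within each line, on log2(CPM + 1), gave p = 0.0312 for LEF1 and 0.0469 for RORA with azacitidine, and 0.365 for both after adjustment over the 20 tests of members and drugs. The smallest p that its 64 arrangements allow is 0.0156.

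Within the treated libraries the dose of azacitidine was tested next. Among the 9 treated libraries, with line as a block, GATA3 and RUNX3 rose and IKZF2 fell with dose, so that 3 of 9 members were called where 13.7% of all genes were, 7.55% higher and 6.17% lower. The slopes are log2 changes per doubling of the dose and use no untreated library.

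**Figure D2:**
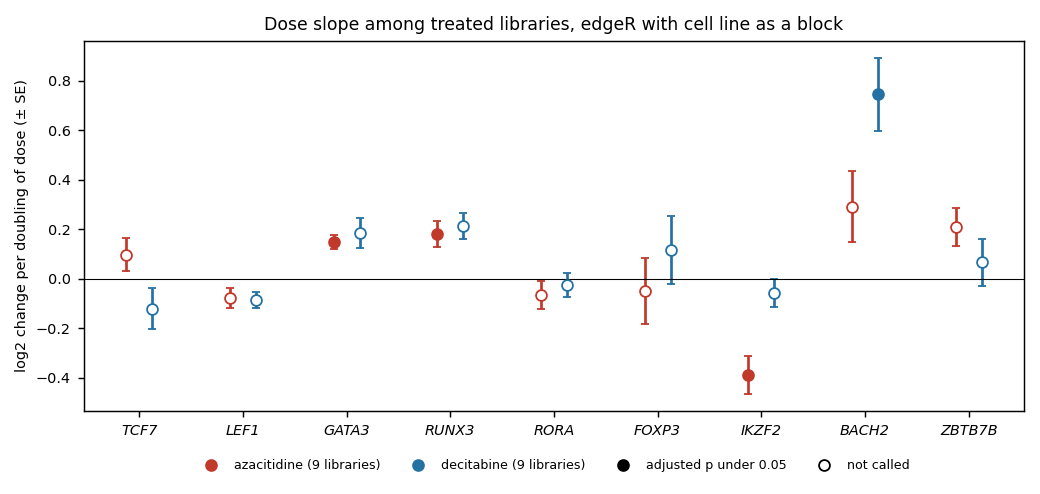
Log2 change per doubling of the dose, with its SE, for the 9 members tested, from 9 azacitidine (red) and 9 decitabine (blue) libraries over different dose ranges, with filled points for adjusted p under 0.05. With azacitidine GATA3 and RUNX3 lie above 0 and IKZF2 at -0.39, and with decitabine BACH2 lies at 0.75.

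GATA3 in HH was at 147 CPM untreated and at 171, 217 and 230 CPM with 50, 125 and 250 nM azacitidine. In PF382 it was at 75.8 CPM untreated and at 71.7, 73.9 and 84.2 CPM with 125, 250 and 500 nM, and in TLOm1 at 30.0 CPM untreated and at 27.8, 30.8 and 34.8 CPM. Each step of dose was a step up in the 3 lines, although the lowest dose in PF382 and TLOm1 lay under the untreated library. The slope was 0.15 (SE 0.03, edgeR adjusted p = 0.00993). Without HH the slope was 0.13 and the call was lost (adjusted p = 0.0602).

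RUNX3 in HH was at 248 CPM untreated and at 271, 356 and 454 CPM with rising azacitidine. In PF382 it was at 11.7 CPM and then 10.9, 13.1 and 14.0 CPM, and in TLOm1 at 266 CPM and then 305, 326 and 312 CPM. HH carried the widest range, and TLOm1 did not rise at its last step. The slope was 0.18 (SE 0.05, edgeR adjusted p = 0.0469). It was called in 6 of 16 alternatives, with adjusted p up to 0.296, and was lost when any 1 HH or PF382 library or the TLOm1 library at 250 nM was left out.

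IKZF2 in PF382 was at 238 CPM untreated and at 172, 135 and 100 CPM with 125, 250 and 500 nM azacitidine. In TLOm1 it was at 92.5 CPM and then 77.8, 66.8 and 53.0 CPM. All treated libraries of these lines were below both untreated libraries, and each dose was below the one before. In HH, where IKZF2 was nearly silent, it was at 0.864 CPM untreated and at 2.16, 0.492 and 0.645 CPM, and the value at 50 nM, from 35 counts, was 2.34% of the TLOm1 level in the library where genes of TLOm1 stood at a median of 1.45%. The part of those reads in the HH value was not tested. The slope was -0.39 (SE 0.08, edgeR adjusted p = 0.0141), and it was -0.34 without HH (adjusted p = 0.00312). The call was lost without PF382 (slope -0.39, adjusted p = 0.123) and without the PF382 library at 500 nM (adjusted p = 0.0516). In bulk RNA, fewer cells that express a gene and less RNA per cell cannot be told apart.

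The other 6 members tested had no slope past the threshold with azacitidine. ZBTB7B in TLOm1 was at 40.2 CPM untreated and at 40.9, 49.3 and 75.7 CPM with rising dose, in HH at 97.0 and then 101, 101 and 107 CPM, and in PF382 at 0, 1, 2 and 5 counts. Its slope was 0.21 (SE 0.08, edgeR adjusted p = 0.109), and it was called without HH (0.47, adjusted p = 0.00672) and without the HH library at 50 nM (0.37, adjusted p = 0.0118). FOXP3 in PF382 was at 4.23 CPM untreated and at 3.02, 2.38 and 1.91 CPM, or 97, 77, 56 and 48 counts, while in TLOm1 it was at 0.772 and then 0.822, 1.07 and 1.27 CPM. The values of FOXP3 were ordered downward with dose in PF382 and upward in TLOm1, and its slope over the lines was -0.05 (SE 0.13, adjusted p = 0.836). TCF7 in PF382 was at 2536 CPM and then 2026, 1966 and 1775 CPM, and in HH at 117 CPM and then 111, 131 and 167 CPM. The TCF7 slope, 0.10 (SE 0.07, adjusted p = 0.372), was called without PF382 (0.25, adjusted p = 0.0254) and without its library at 500 nM (0.21, adjusted p = 0.0368). LEF1 in PF382 was at 1145 CPM and then 894, 859 and 836 CPM, in HH at 433 and then 433, 427 and 422 CPM, and in TLOm1 at 30.4 and then 26.1, 26.6 and 19.7 CPM.

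In the lists around the members, to be read against the 13.7% of all genes called (7.55% higher and 6.17% lower), azacitidine dose moved 4 of 14 T-cell commitment factors (ETS1, TCF3 and ID3 higher, IKZF3 lower), 2 of 17 helper and effector factors (KLF2 and MAF higher) and 3 of 17 paralogs (FOXP1 and TCF7L2 higher, IKZF3 lower). KLF2, a factor of quiescent naive T cells, had a slope of 0.55 (SE 0.08, edgeR adjusted p = 0.00328), and IKZF3, an Ikaros family paralog of IKZF2, a slope of -0.24 (SE 0.05, adjusted p = 0.0135). Of genes downstream of these programmes, 2 of 10 naive and memory genes were called (1 higher, KLF2, and 1 lower), 1 of 7 regulatory T-cell genes (CCR8, slope -0.69, SE 0.11, adjusted p = 0.00464), 1 of 5 type 2 genes (IL4R, slope 0.20, SE 0.06, adjusted p = 0.0445), and 0 of 8 type 1 and 0 of 3 type 17 genes. Of the marker lists, 2 of 6 immature thymocyte markers were lower (RAG2 and CD1A), 1 of 3 B-cell markers and 1 of 4 epithelial and stromal markers (KRT18) were higher, and 0 of 10 T-lineage receptor genes, 0 of 4 myeloid markers were called, nor was LEF1-AS1. The median slope was 0.10 for the 9 members and 0.01 for all genes. The immature thymocyte sum in PF382, where IKZF2 fell, went from 1615 to 1737 CPM untreated to 858 to 1238 CPM with azacitidine, and its part in the result was not tested.

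BACH2 rose with the dose of decitabine. In PF382 BACH2 was at 11.3 CPM untreated and at 10.2, 20.3 and 39.4 CPM with 5, 12.5 and 25 nM, or 174, 178, 304 and 548 counts. The 2 higher doses were above both untreated libraries and the lowest dose was below them. In HH and TLOm1 it stayed at 1 to 7 counts in all decitabine and untreated libraries. The slope was 0.75 (SE 0.15, edgeR adjusted p = 0.0174), the 1 call among 9 members, where 2.97% of all genes were called, 2.18% higher and 0.791% lower. The call rested on PF382, since it was lost without any 1 of its 3 treated libraries, with adjusted p from 0.0771 to 0.296. With azacitidine BACH2 in PF382 was at 10.3 CPM untreated and at 6.81, 7.26 and 11.2 CPM, with no called slope (0.29, SE 0.14, adjusted p = 0.206).

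**Figure D3:**
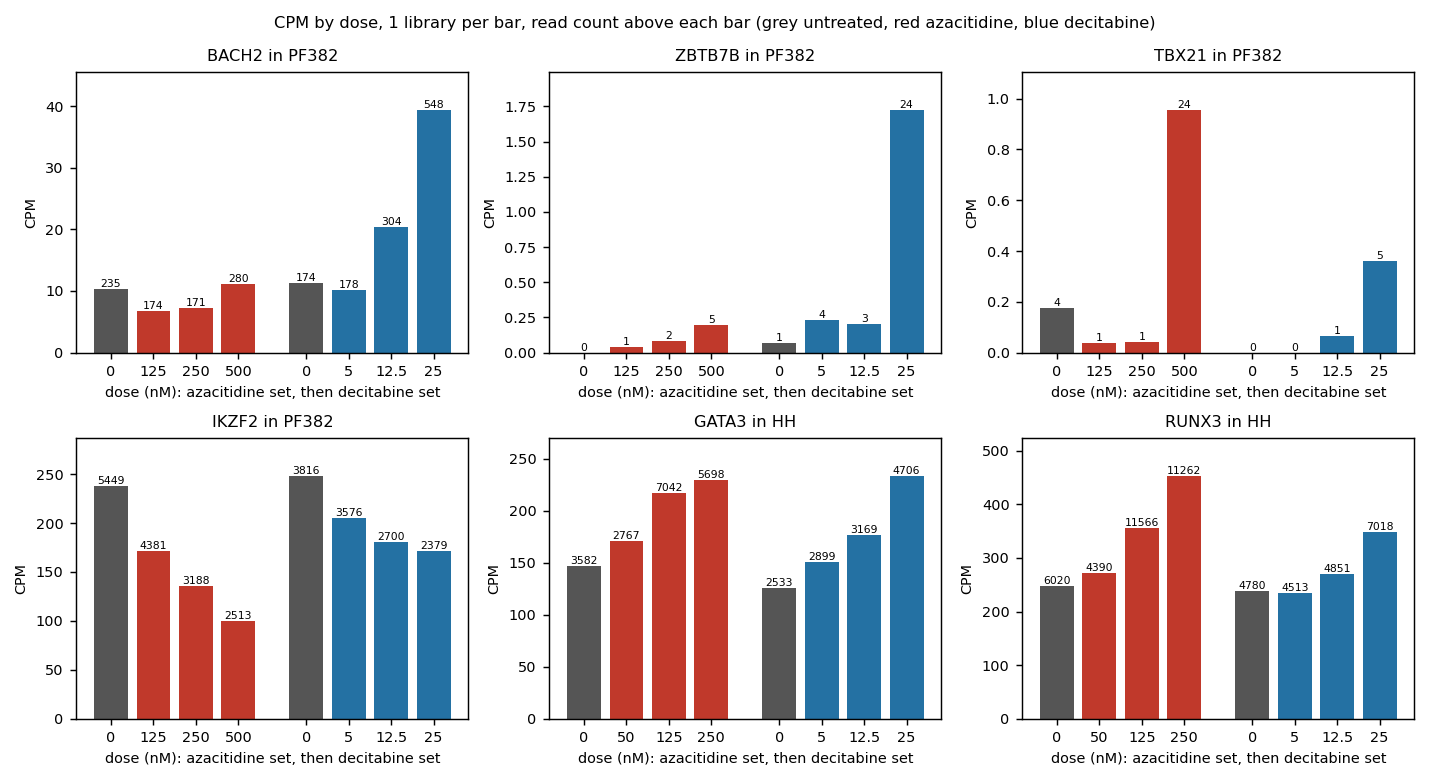
CPM of BACH2, ZBTB7B, TBX21 and IKZF2 in PF382 and of GATA3 and RUNX3 in HH, with 1 bar per library, the dose in nM on the x axis and the read count above each bar. BACH2 reaches 39.4 CPM at 25 nM decitabine, ZBTB7B and TBX21 stay at 24 counts or fewer, and IKZF2 steps down with each dose of either drug.

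Within the decitabine set, RUNX3 and GATA3 were highest at the top dose in HH and PF382, with slopes short of the threshold. RUNX3 in HH was at 238 CPM untreated and at 235, 271 and 349 CPM, in PF382 at 9.06 and then 10.6, 13.8 and 22.2 CPM, and in TLOm1 at 263 and then 279, 323 and 316 CPM. Its slope was 0.21 (SE 0.05, edgeR adjusted p = 0.0625), and DESeq2 and voom called it, as did edgeR without any 1 of the PF382 library at 25 nM and the TLOm1 libraries at 5 and 25 nM. GATA3 in HH was at 126 CPM and then 151, 177 and 234 CPM, in PF382 at 37.1 and then 39.5, 55.5 and 71.6 CPM, and in TLOm1 at 32.6 and then 36.5, 31.9 and 34.6 CPM. The azacitidine-set untreated PF382 library stood at 75.8 CPM, above each of these PF382 values. The GATA3 slope was 0.19 (SE 0.06, adjusted p = 0.158), and 0.28 without the TLOm1 library at 5 nM (adjusted p = 0.00126). Without TLOm1, 4 members were called, BACH2, GATA3 and RUNX3 higher and LEF1 lower.

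The values of the early factors in PF382 were ordered downward over the decitabine doses, with no called slope. TCF7 in PF382 was at 1821 CPM untreated and at 1604, 1283 and 1007 CPM with 5, 12.5 and 25 nM, and LEF1 at 903 and then 829, 769 and 654 CPM. In HH the TCF7 values were 140 CPM and then 138, 148 and 157 CPM, and the LEF1 values 492 and then 552, 516 and 490 CPM. The slopes over the lines were -0.12 for TCF7 (SE 0.08, edgeR adjusted p = 0.494) and -0.08 for LEF1 (SE 0.03, adjusted p = 0.18). IKZF2 in PF382 was at 249 CPM and then 205, 181 and 171 CPM, and in TLOm1 at 92.8 and then 89.8, 71.5 and 89.1 CPM. RORA in HH was at 79.7 CPM and then 102, 110 and 98.6 CPM, and in TLOm1 at 101 and then 90.8, 67.9 and 84.4 CPM, so the treated libraries lay on opposite sides of the untreated one in the 2 lines.

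In the lists, where 2.97% of all genes were called (2.18% higher and 0.791% lower), decitabine dose moved 2 of 18 helper and effector factors (ID2, slope 0.53, SE 0.10, edgeR adjusted p = 0.0148, and ZNF683, slope 1.35, SE 0.29, adjusted p = 0.0341), 1 of 7 type 1 genes (CXCR3, slope 0.66, SE 0.12, adjusted p = 0.0161), 1 of 3 type 17 genes (IL26), 1 of 10 T-lineage receptor genes (CD8A, slope 0.40, SE 0.09, adjusted p = 0.038), each higher, and 1 of 6 immature thymocyte markers (CD1A, lower). ZNF683 is a factor of tissue-resident and cytotoxic T cells and CXCR3 a chemokine receptor of type 1 cells. None of 14 commitment factors, 17 paralogs, 10 naive and memory genes, 5 type 2 genes, 8 regulatory T-cell genes, 3 B-cell, 3 myeloid or 4 epithelial and stromal markers was called.

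TBX21 and ZBTB7B were nearly silent in PF382 and showed counts at the highest doses. TBX21 in PF382 had 4 counts untreated and 1, 1 and 24 counts with 125, 250 and 500 nM azacitidine (0.957 CPM at 500 nM), and 0 untreated and 0, 1 and 5 counts with decitabine. In TLOm1 it had 0 counts untreated and 2, 1 and 9 counts with azacitidine. TBX21 did not pass the filter and was not tested across genes. In the exact permutation test its p was 0.578 with azacitidine and 0.203 with decitabine. ZBTB7B in PF382 had 1 count untreated and 4, 3 and 24 counts with 5, 12.5 and 25 nM decitabine, the last at 1.73 CPM. That is 1.88% of the HH and 5.06% of the TLOm1 level, in a library where genes high in HH had a median of 0.191% and genes high in TLOm1 a median of 0.125% of their source. Both genes have 1 library at their highest dose in PF382, and these values have no replicate check.

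Within single lines, 2 members were called, both with azacitidine and both lower. These tests used all 24 libraries with line within set as 6 blocks, and each effect rests on 1 untreated library. The 3 doses of a drug in a line again stood in for replicates, with any dose trend counted as spread. With azacitidine in HH 0 of 9 members were called by edgeR, DESeq2 or voom and 0 had an unadjusted p under 0.05, against 0% of all genes. In PF382 1 of 9 was called, against 0.974% of all genes, 0.412% higher and 0.562% lower, and in TLOm1 1 of 9, against 1.47%, 0.993% higher and 0.474% lower. With decitabine 0 of 9 were called in HH, PF382 or TLOm1, against 0.00624%, 0.262% and 0% of all genes (in PF382 0.25% higher and 0.0125% lower), while 2, 1 and 0 members had an unadjusted p under 0.05, and DESeq2 and voom called 0. The difference between lines was called for the same 2 members with azacitidine, against 0.15% of all genes, and for 0 with decitabine, against 0.00624%, where 1 member had an unadjusted p under 0.05.

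**Figure D4:**
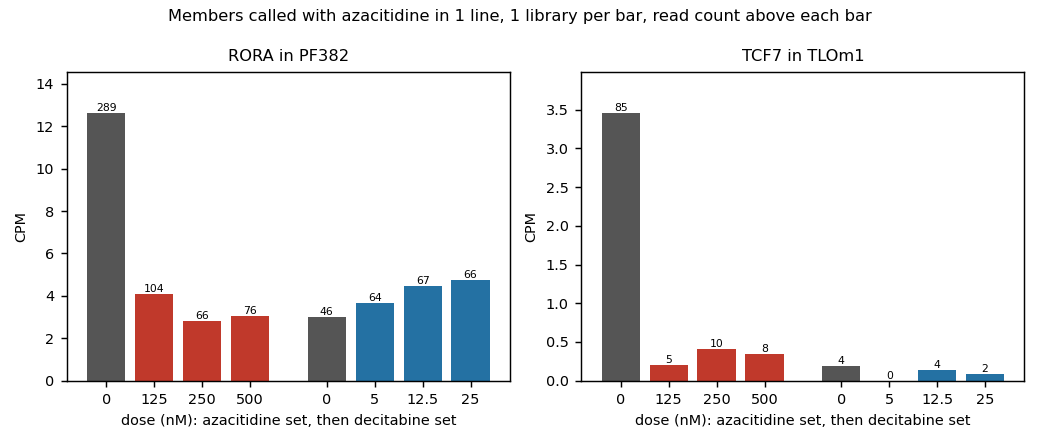
CPM of RORA in PF382 and TCF7 in TLOm1 in all 8 libraries of the line, with 1 bar per library, the dose in nM on the x axis, untreated libraries in grey and the read count above each bar. In both panels the azacitidine-set untreated library, at 289 and 85 counts, stands above the 7 others, the decitabine-set untreated library among them.

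RORA in PF382 was at 12.6 CPM in the azacitidine-set untreated library and at 4.07, 2.80 and 3.03 CPM with 125, 250 and 500 nM. The decitabine-set untreated library stood at 3.0 CPM, within the range of the treated libraries. The effect of azacitidine was -1.97 on the log2 scale (SE 0.20, edgeR adjusted p = 7.35e-05) and the test of a difference between lines gave an adjusted p of 0.00994. With the decitabine-set library as the control in PF382, an alternative added after the values were seen, the effect was 0.17 (SE 0.28, adjusted p = 0.696) and the difference between lines was lost (adjusted p = 0.451). With both untreated libraries as controls the effect was -1.31 (adjusted p = 0.0372). The RORA reads of the azacitidine-set library were 16.7% of the HH level, where genes high in HH stood at a median of 0.0743% in that library. Those genes were at most 0.5 CPM in the decitabine-set untreated PF382 library, where RORA was at 3.0 CPM, so RORA is not among them. The part of such reads in the RORA result was not tested.

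TCF7 in TLOm1 was at 3.45 CPM in the azacitidine-set untreated library and at 0.206, 0.41 and 0.339 CPM with rising azacitidine, or 85 against 5, 10 and 8 counts. In the decitabine set it had 4 counts untreated and 0, 4 and 2 counts treated. The effect was -3.40 (SE 0.49, edgeR adjusted p = 0.0126), with an adjusted p of 0.0447 for the difference between lines, and voom did not call it (adjusted p = 0.0775). The difference was lost when any 1 treated PF382 or TLOm1 library or HH at 125 nM was left out (adjusted p from 0.0533 to 0.0999). With the decitabine-set library as the control in TLOm1 it was 0.82 (SE 1.08, adjusted p = 0.641) and the difference between lines was lost (adjusted p = 0.407). Under that control RORA was called lower in TLOm1 (-0.89, adjusted p = 0.00218, from -0.36) and ZBTB7B higher (1.03, adjusted p = 0.048, from 0.48). The 85 counts equal 0.159% of the PF382 level of TCF7. In the same library the 94 genes high in PF382, TCF7 and CD3D among them, stood at a median of 0.214% of their PF382 level. At 125, 250 and 500 nM azacitidine the median of these genes was 0.068%, 0.107% and 0.251%. CD3D had 18 counts in the azacitidine-set untreated library, 0.213% of its PF382 level, against 0, 3 and 2 counts in the treated libraries. It was called lower as well (-3.29, SE 0.61, edgeR adjusted p = 0.0224). The part of reads of genes high in PF382 in the TCF7 result was not tested.

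GATA3 in PF382 also depended on the control library, and was called under the added control alone. Its azacitidine effect was -0.03 (SE 0.24, edgeR adjusted p = 0.997) against the untreated library at 75.8 CPM and 1.08 (SE 0.27, adjusted p = 0.0116) against the one at 37.1 CPM. IKZF2 had closer untreated libraries, at 238 and 249 CPM in PF382 and 92.5 and 92.8 CPM in TLOm1, and its effects with azacitidine were -0.85 in PF382 (SE 0.31, adjusted p = 0.248) and -0.47 in TLOm1 (SE 0.32, adjusted p = 0.436).

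In the same per-line tests of the lists, 1.47% of all genes were called with azacitidine in TLOm1, 0.993% higher and 0.474% lower. There CD5 was called higher and CD3D lower among 10 T-lineage receptor genes. LRRN3 was called higher among 10 naive and memory genes and KRT8 higher among 4 epithelial and stromal markers. The CD3D call rests on the azacitidine-set untreated library, as for TCF7, and CD3D was lower in the decitabine-set untreated library. None of the list genes was called in HH or PF382 or with decitabine. Over the 3 lines azacitidine moved 1 of 10 naive and memory genes (LRRN3), 1 of 4 epithelial and stromal markers (KRT8) and 1 of 4 B-cell markers, each higher, against 1.17% of all genes. The B-cell sum in PF382 went from 10.7 to 12 CPM untreated to 19.7 to 23.2 CPM with azacitidine, and its part in any member's value was not tested. The epithelial and stromal sum in TLOm1 went from 7.17 to 10.7 CPM untreated to 87.1 to 105 CPM with azacitidine and 39.8 to 57.4 CPM with decitabine, and its part in any member's value was not tested.

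The genes most alike each member over the 24 libraries, by Pearson r of log2 CPM (prior count 2), followed the step between lines, since the points share lines, sets and untreated libraries. For TCF7 they were CD3D (r = 0.997), ZHX3 (0.991) and MYO7B (0.988). For LEF1 they were UBASH3A (0.994), CHST10 (0.994) and SAP130 (0.994), for GATA3 POU2F2 (0.976), CREBBP (0.975) and CST7 (0.973), and for RUNX3 HLA-DPA1 (0.996), THEM4 (0.995) and RELB (0.995). For RORA they were FAM117A (0.985), CPA6 (0.984) and UGGT2 (0.983), for FOXP3 CLUAP1 (0.953), CYFIP1 (0.937) and TCHH (0.934), and for IKZF2 HIVEP2 (0.994), LIN28B (0.994) and SLFN11 (0.994). For BACH2 they were KIT (0.984), ZNF730 (0.983) and CHRNA9 (0.983), and for ZBTB7B PHLDA1 (0.991), DOCK6 (0.99) and RALB (0.99). After each line and set was centred on its own mean, r fell to between 0.382 for BACH2 with CHRNA9 and 0.892 for TCF7 with CD3D. In the azacitidine set of TLOm1, both TCF7 and CD3D had low counts and were highest in the untreated library. TCF7 had 85 counts there, and the genes high in PF382 had a median of 0.214% of their PF382 level. The part of that library in the r of 0.892 was not tested.

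Between members, the picture over all libraries and within line and set differed. GATA3 and RUNX3 had r = 0.253 over the 24 libraries and 0.866 after centring, TCF7 and LEF1 had 0.976 and 0.485, and RUNX3 and ZBTB7B had 0.98 and 0.679. RUNX3 and RORA, which are both low in PF382, had 0.964 over the libraries and -0.04 after centring. LEF1 was negatively related to ZBTB7B, with -0.491 over the libraries and -0.798 after centring, and to RUNX3, with -0.598 and -0.544. The pairs named are examples and follow no rule set beforehand. All these r values are descriptions over 24 libraries that share depth, drug and dose.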

How the data were processed

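Per the labels, RNA was extracted with a Qiagen kit and sequenced from strand-specific libraries, described both as poly-A RNA and as depleted of ribosomal RNA. The authors deposited whole read counts per gene, not normalized. STAR, DESeq2, limma and build GRCh37.p2 stand in the submitters' processing notes, with no versions or roles, and no source used here names the read counter or the annotation. The paper given with the series describes other cells and was used for style.

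Counts of all genes were tested with edgeR 4.0.16 in R 4.3.3 (TMM, filterByExpr with minimum count 10 and total 15, robust quasi-likelihood F test, Benjamini-Hochberg over all genes, threshold 0.05). SE was derived from the fold change and F. DESeq2 1.42.0 and limma 3.58.1 voom were alternatives, beside other size factors, no filter, left-out libraries and lines, and other controls. The pseudocount of the permutation test was 1 CPM, or 0.25 as an alternative. The untreated pairs differed by more than sampling noise (chi-square per degree of freedom 25.1 to 36.2) and were kept apart. The tests were also run on simulated independent libraries with 1 fixed spread, for genes with a mean above 1 CPM. No outlying untreated library was simulated, so that check does not cover calls that turn on one.

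The members and lists were chosen with earlier results of these data known. All members are named. Of each list, up to 4 called genes with the smallest adjusted p per comparison may be named, and of each member with a mean of at least 1 CPM the 3 most alike genes with a symbol. GATA3-AS1, RORA-AS1, RORA-AS2 and RUNX3-AS1 were not matched, and PTGDR2 was matched as GPR44. A few called list genes are counted but not reported here by name.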

Additional observations from a re-analysis of the deposited data

Results flagged for a closer look

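The members RORA and TCF7 had azacitidine effects that differed between the lines by a test of the difference itself. For RORA the adjusted p was 0.00994 (edgeR quasi-likelihood F test over all genes), with an effect of -1.97 on the log2 scale in PF382, and the treated libraries lay below the untreated one in 3 of 3 in PF382. The adjusted p ranged up to 0.451 over the 16 alternatives, of which 13 called it. Every alternative that called it kept the untreated PF382 library at 289 counts as the only azacitidine control in PF382. It was not called with limma voom, with both untreated libraries as controls or with the decitabine-set control in PF382. For TCF7 the adjusted p was 0.0447, with an effect of -3.40 in TLOm1, against 0.21 in HH and -0.44 in PF382, lower in 3 of 3 treated TLOm1 libraries. It was called in 6 of 16 alternatives, with adjusted p up to 0.407. In both, the call moved with the choice of untreated library.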

How the results depend on the processing

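Over the alternatives, 2109 member values kept their side of the threshold, 59 lost a call, 29 gained one and 4 changed sign with a call under 1 of the settings. Of the 2109, 1717 kept their direction, 346 come from tests without one and 46 changed sign without a call under either setting, among them RORA with decitabine in PF382 (0.48, and -1.0 with both untreated libraries as controls) and BACH2 with azacitidine in TLOm1 (-0.86, and 0.74 with the decitabine-set control). The 4 with a call were RORA between the untreated sets without PF382 untreated replicate 1 (0.36, adjusted p = 0.0404), and, with the decitabine-set untreated library as the control, an alternative chosen after seeing the data, GATA3 in PF382 (1.08), RORA in PF382 (0.17) and TCF7 in TLOm1 (0.82). The cause was not tested, apart from the control library that these alternatives change.

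Over single left-out libraries the RORA difference between sets ranged from -0.66 to 0.37. Leaving out 1 library gave 0 to 1 members between untreated sets, 0 to 3 for decitabine dose (0 without PF382 at 5 or 12.5 nM, 3 without TLOm1 at 5 or 25 nM) and 1 to 2 for the azacitidine difference between lines. Azacitidine called 1 member with DESeq2 (RORA, lower) and a different 1 with both untreated libraries as controls (RUNX3, higher). Decitabine dose called 2 with DESeq2, 2 with voom and 4 without line TLOm1. With voom, azacitidine in a line called 1, and its difference between lines 0. With both untreated libraries as controls that difference called 0, and decitabine in a line 2 (LEF1 in PF382 and TCF7 in TLOm1, both lower). With the decitabine-set control in PF382 the difference between lines called 1 (TCF7), and with that in TLOm1 it called 1 (RORA). The cause of these was not tested. TBX21 had at most 24 counts in any library, and BACH2 outside PF382 at most 7.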
